A study of Homo sapiens with 6 samples.

Results

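The response to cGAMP was examined in HAQ/- cells, an edited clone of the ovarian cancer line SKOV3 whose remaining STING1 allele is the HAQ haplotype, the other allele having been deleted with Cas9 and a pair of guides. HAQ is a common form of the STING1 protein that differs at several residues from the form that the study calls WT. The cells are represented by 2 of the 6 libraries of the series, 1 control and 1 given 2'3'-cGAMP at 10 μg/mL in a digitonin permeabilization buffer for 30 min and then left in fresh medium for 4 h. How the control cells were handled is not described in the text of the methods. The other 4 libraries are the same pair for the parent cells, which carry 1 WT and 1 HAQ allele (WT/HAQ), and for a clone that kept the WT allele (WT/-). Each genotype is 1 clone or the parent line, each condition is 1 library, and no condition has a replicate, so a difference between lines cannot be told apart from a difference between clones or cultures. Of the 60498 genes in the table, 15126 averaged 10 counts or more across all 6 libraries and were analysed. In such bulk samples, fewer responding cells and less RNA per cell cannot be told apart.

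cGAMP is the second messenger made by cGAS when it finds DNA in the cytosol. It binds STING1 on the endoplasmic reticulum, STING1 moves to the Golgi and recruits the kinase TBK1, and TBK1 phosphorylates the transcription factor IRF3. IRF3 switches on type I and type III interferon genes together with a set of direct targets, and STING1 also activates NF-kB. Secreted interferon then acts through its receptors and the factor ISGF3, a complex of STAT proteins and IRF9, to raise a large set of interferon-stimulated genes (ISGs), many of which encode proteins that block viruses.

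The HAQ/- control library held 17022809 counts and the cGAMP library 13686498, with 21814 and 21193 genes detected. Counts are the estimated reads per gene, and the cGAMP library is the shallower of the pair, so that a gene at an equal level has fewer counts there: GAPDH, a glycolytic enzyme used as a reference, had 28156 counts without and 23076 with cGAMP and a log2 fold change of 0.04. Fold changes are of counts scaled by library size, counts under 3 were set to 3, and each log2 fold change is given with a 95% Wilson interval that covers counting error only. A gene is called raised or lowered at a fold of at least 1.5 in either direction. The 10 reference genes had a median log2 fold change of 0.04 and the 12 mitochondrially encoded genes 0.01, with 0 of either called. Of the 10 markers of epithelial and SKOV3 cells, 7 had more than 10 counts in both HAQ/- libraries (summed level 91891.7 and 87408.0 normalized counts). MUC16, which encodes the ovarian tumour antigen CA125, had 1 and 4 counts. The leukocyte markers PTPRC, CD3E and NKG7 had at most 1 count in either library, and CD68 held most of that list's sum (459.8 and 566.0). The 6 fibroblast markers summed to 2071.9 and 2155.2 normalized counts and the 4 endothelial markers to 26.2 and 37.2.

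cGAMP raised 1021 genes in HAQ/- cells (6.75% of the genes analysed) and lowered 872 (5.76%). The rises were the larger. At least 4-fold, 155 genes were raised and 40 lowered, and at least 32-fold, 12 were raised and 2 lowered. The middle 50% of all genes lay between -0.18 and 0.14 on the log2 scale, with a median of -0.01. Low counts made many of the calls: among the 3039 genes with a mean count of 10 to 50, 19.5% were raised and 17.6% lowered, whereas among the 3588 genes above a mean of 1000, 3.54% were raised and 2.01% lowered. In 321 of the raised and 148 of the lowered genes the whole counting interval lay past 1.5-fold. The raised genes took 1.09% of all counts in the control library and 3.32% in the cGAMP library, and the lowered genes took 1.84% and 0.996%. Protein-coding genes made up 74.2% of the raised, 63.6% of the lowered and 86.6% of all analysed genes, and long noncoding RNAs 14.9%, 22.6% and 8.16%.

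**Figure D1:**
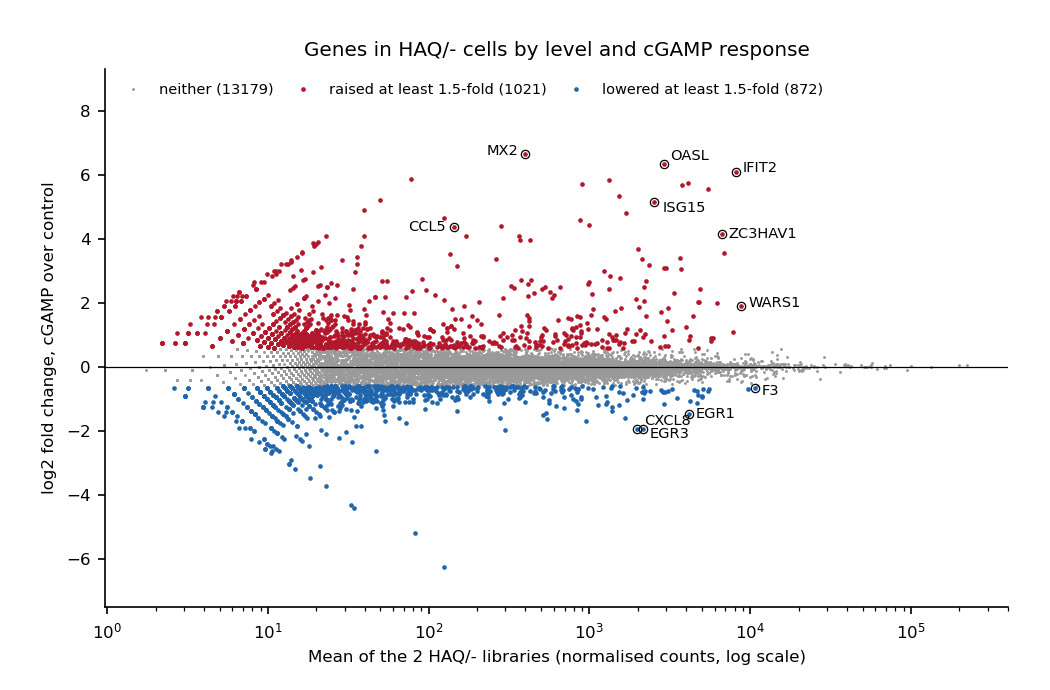
Each point is 1 of the 15072 genes with a fold change in HAQ/- cells, with the mean of both libraries (normalized counts, log scale) on the x axis and the log2 fold change of cGAMP over control on the y axis, red for 1021 raised and blue for 872 lowered genes. Rises reached 6.65 (MX2) and falls -6.24 (ENSG00000277701, whose reads are shared), and calls at the left edge come from few counts.

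STING1, on chromosome 5 (139475533 to 139482935, minus strand), had 244 counts in the HAQ/- control and 368 in the cGAMP library, a log2 fold change of 0.92 (0.69 to 1.15). In normalized counts the HAQ/- control library (213) lay below those of WT/- (353) and WT/HAQ (669.1), and the treated HAQ/- library (402.8) lay below those of WT/- (553) and WT/HAQ (1780.3). Of the 21 analysed genes of the cGAS-STING pathway, STING1 included, 4 were raised, 0 were lowered and the median was 0.05. IFI16, a nuclear DNA sensor, rose most, from 998 to 2902 counts (1.87, 1.76 to 1.97). The kinase TBK1 went from 717 to 434 counts and its substrate IRF3 from 1399 to 878, at -0.40 and -0.34, short of the call. CGAS itself was at 1 and 2 counts and got no fold change.

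IFNB1 and the type III interferon genes had few counts in both HAQ/- libraries. IFNB1, the type I interferon of epithelial cells, had 6 counts in the control and 15 in the cGAMP library (1.65, 0.33 to 2.97), where the treated WT/- and WT/HAQ libraries held 1934 and 1325. IFNL1, a type III interferon, had 7 and 17 counts (1.61, 0.38 to 2.84). IFNL2 had 0 counts in both HAQ/- libraries and IFNL3 had 0 and 3. IFNA1 had 27 and 6 counts (-1.84), but alpha interferon genes are near-identical copies and reads can be shared among them, so its value is uncertain. IFNE, an interferon of the reproductive tract, had 113 and 108 counts (0.26), against log2 fold changes of -1.27 in WT/- and -0.82 in WT/HAQ. Of 6 interferon genes analysed, 2 were raised and 1 was lowered.

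In contrast, genes downstream of interferon and IRF factors were raised strongly. Of the 41 analysed antiviral effectors, 37 were raised and 1 was lowered, with a median log2 fold change of 3.0 against -0.01 for all genes. MX2, a dynamin-like GTPase that blocks viral capsids, went from 9 to 720 counts (6.65, 5.72 to 7.58), and its neighbour MX1 from 165 to 6781 (5.69, 5.47 to 5.91). OASL, which boosts RNA sensing by RIG-I, went from 82 to 5248 counts (6.33, 6.01 to 6.64). IFIT2, IFIT1 and IFIT3, which bind viral RNA lacking host cap marks or modulate that binding, went from 270 to 14735, from 174 to 7347 and from 260 to 9740 counts. Their log2 fold changes were 6.10, 5.73 and 5.55, and each stood at 270 counts or fewer before treatment. RSAD2 (viperin), which makes a chain-terminating nucleotide, went from 53 to 2390 counts (5.82, 5.43 to 6.21). OAS1 and OAS2, which make the 2-5A messenger, went from 39 to 1614 (5.70, 5.24 to 6.15) and from 86 to 2738 counts (5.32, 5.01 to 5.63). RTP4, a chaperone of membrane receptors with antiviral activity, had 3 counts in the control and 139 with cGAMP (5.86, 4.29 to 7.43). With a floor of 10 counts the log2 fold change of RTP4 was 4.12. APOBEC3B, a DNA cytidine deaminase, was the lowered member with 106 and 52 counts (-0.70).

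The machinery of ISG15, a ubiquitin-like protein attached to newly made proteins, was raised in full: 6 of 6 genes were called, with a median of 2.96. ISG15 went from 159 to 4513 counts (5.15, 4.93 to 5.38). The activating enzyme UBA7 had 49 and 97 counts (1.31) and the conjugating enzyme UBE2L6 616 and 1281 (1.38), while the deconjugating protease USP18, which also blocks interferon receptor signaling, went from 46 to 629 (4.10, 3.67 to 4.53). USP18 has estimated counts that are not whole in these libraries, a sign that reads are shared with another gene.

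Sensors of viral RNA were raised in 8 of 10 cases, with a median of 2.46. RIGI went from 134 to 2994 counts (4.81) and IFIH1 (MDA5) from 80 to 1543 (4.6), whereas their adaptor MAVS had 3798 and 3138 (0.05) and the Toll-like receptor adaptor TICAM1 436 and 350 (0.01). IFIH1 was chosen after its values were seen. Of the 5 guanylate-binding proteins, large GTPases that attack intracellular pathogens, 4 were raised (median 2.07), with GBP4 going from 27 to 145 counts (2.75) and GBP1 from 181 to 822 (2.51), and GBP2 not called with 125 and 100 counts (0.01).

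**Figure D2:**
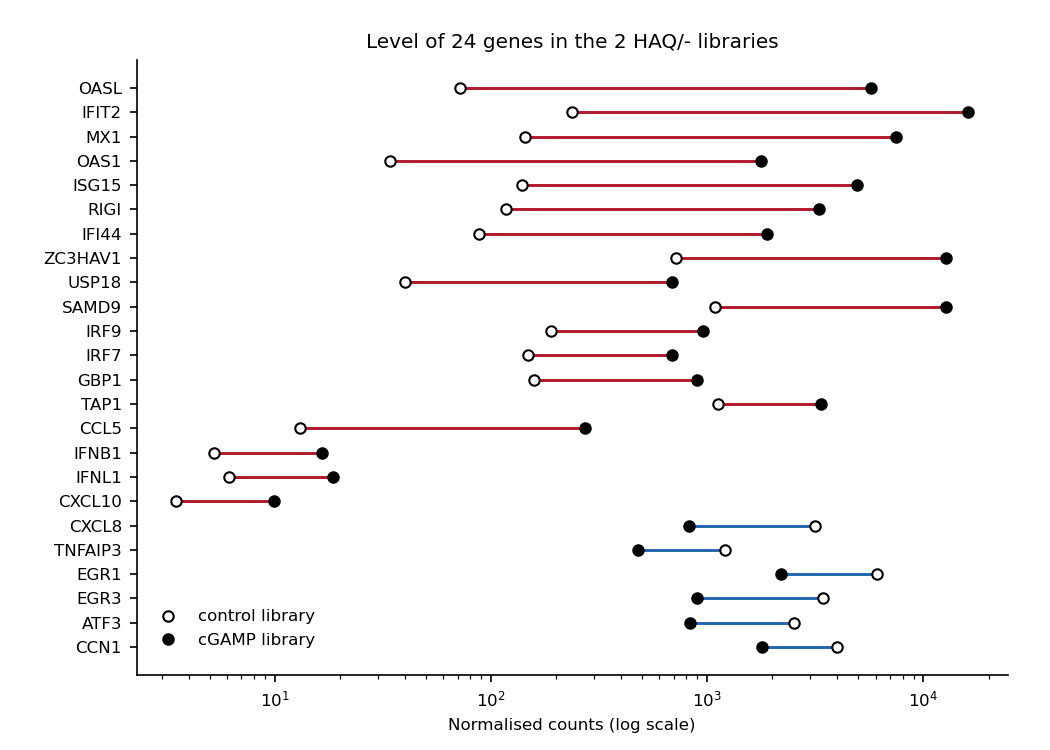
Level of 24 genes in the HAQ/- control (open circle) and cGAMP library (filled circle) in normalized counts on a log axis, 1 library each, with red lines for raised and blue for lowered genes. OASL ended at 5745 and IFIT2 at 16130 normalized counts, while IFNB1, IFNL1 and CXCL10 ended at 16.4, 18.6 and 9.85.

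The transcription factors of the response were split. Of the 7 analysed IRF genes 4 were raised and 0 lowered: IRF9, the DNA-binding subunit of ISGF3, went from 218 to 871 counts (2.33, 2.11 to 2.54) and IRF7, which amplifies interferon production, from 169 to 628 (2.22, 1.98 to 2.47), while IRF3 was not called (-0.34). Among the interferon receptors, JAK kinases and STATs, 3 of 11 were raised, 0 were lowered and the median was 0.12. STAT2, which brings the transactivation domain to ISGF3, went from 540 to 1501 counts (1.80), and the receptor chains IFNGR1 and IFNGR2 were not called (-0.10 and -0.19). Of the 10 feedback inhibitors 4 were raised and 0 lowered. SOCS1, which inhibits JAK kinases, went from 30 to 108 counts (2.18, 1.60 to 2.76), and TIPARP, an ADP-ribosyltransferase that restrains TBK1, had 1239 and 1162 counts (0.23, 0.12 to 0.35).

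Antigen presentation moved less. Of 20 genes of the MHC class I pathway 4 were raised and 0 lowered, with a median of 0.29. The peptide transporter subunit TAP1 went from 1286 to 3062 counts (1.58, 1.49 to 1.67) and NLRC5, the transactivator of class I genes, from 559 to 992 (1.15, 1.01 to 1.30), while the peptide-trimming protease ERAP1 had 396 and 296 counts (-0.09). Among checkpoint ligands and related surface genes 3 of 10 were raised and 0 lowered. LGALS9 (galectin-9) went from 16 to 81 counts (2.67, 1.90 to 3.43) and CD274 (PD-L1) from 54 to 184 (2.10, 1.66 to 2.53), and the adhesion ligands PVR and NECTIN2 were not called (-0.33 and -0.04). The chemokines that attract T cells through CXCR3 stayed low, although 4 of the 6 genes on the chemokine list were called raised and 0 lowered: CXCL10 had 4 and 9 counts (1.5, -0.12 to 3.11) and CXCL11 2 and 10 (2.06, 0.63 to 4.67), and CXCL9 was at 0 in both libraries. CCL5, which attracts T cells and monocytes, went from 15 to 249 counts (4.38, 3.64 to 5.12), and CX3CL1, a membrane-bound chemokine, from 6 to 65 (3.76, 2.59 to 4.94). The interval of CXCL10 includes 0 and those of CXCL11, CCL5 and CX3CL1 do not.

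Of 22 genes of death receptors, caspases and the BCL2 family 7 were raised and 0 lowered (median 0.39). XAF1, an antagonist of the caspase inhibitor XIAP, went from 51 to 639 counts (3.97, 3.56 to 4.38), and PMAIP1 (NOXA), a BH3-only protein that counters MCL1, from 1738 to 7512 (2.44, 2.36 to 2.51). MCL1 itself had 31138 and 22852 counts (-0.12) and the TRAIL receptor TNFRSF10B 9408 and 6096 (-0.30).

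**Figure D3:**
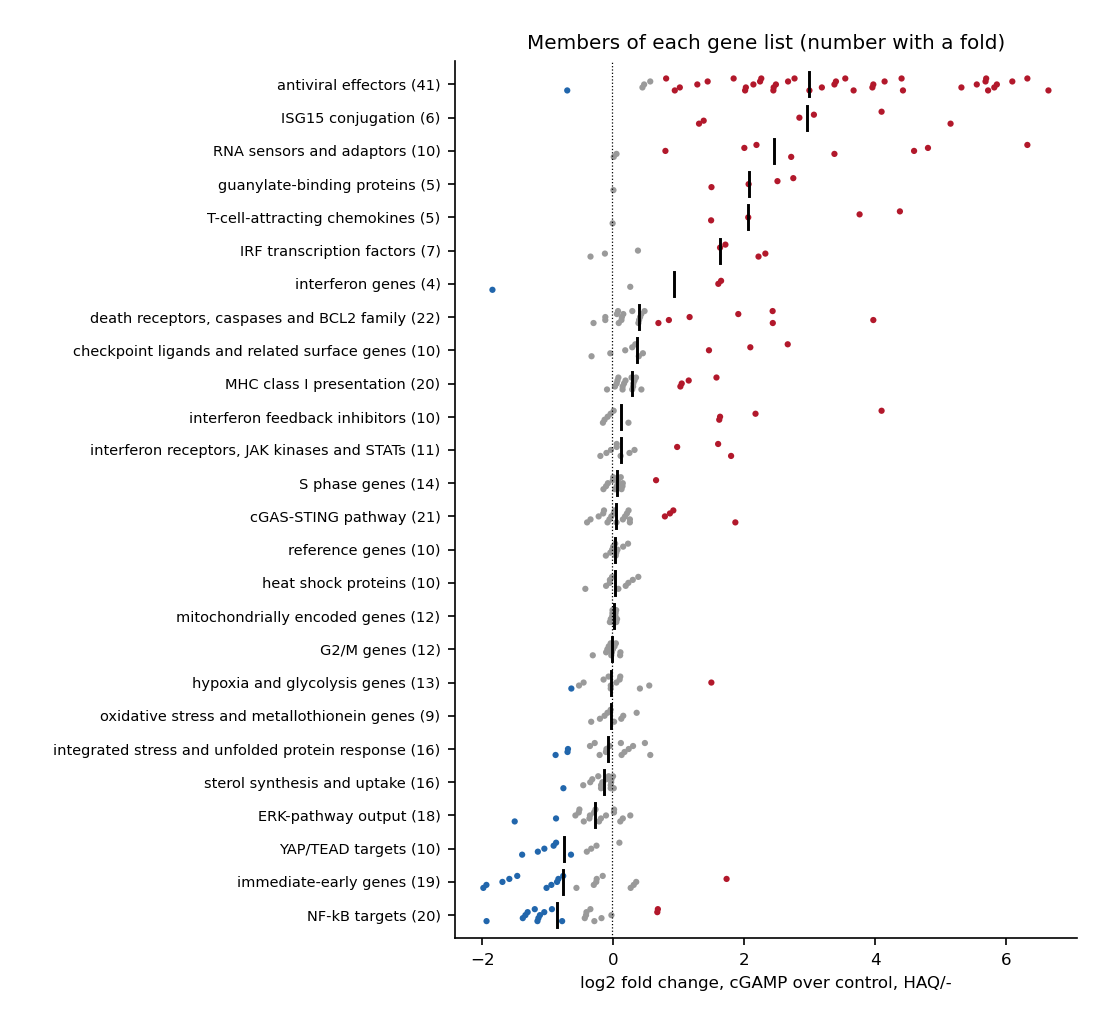
Members of 26 gene lists by log2 fold change of cGAMP over control in HAQ/- cells, red for raised, blue for lowered and gray for not called, with the list median as a black bar and the median of all genes (-0.01) as a dotted line. Medians ran from 3.0 for antiviral effectors to -0.86 for NF-kB targets, and the reference, heat shock and mitochondrially encoded lists lay at 0.01 to 0.04.

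In normalized counts the 5 largest gains were IFIT2, ZC3HAV1, SAMD9, IFIT3 and WARS1. SAMD9, an antiviral tRNA nuclease, went from 1250 to 11639 counts, ZC3HAV1 (ZAP), which binds CpG-rich viral RNA, from 819 to 11563, and WARS1, the tryptophanyl-tRNA synthetase, from 4288 to 12691 (1.89, 1.84 to 1.94). The 5 largest losses were RESF1, a silencer of endogenous retroviruses (35103 to 21676 counts, -0.37), the actin ACTG1 (111737 to 83188, -0.10), tissue factor F3 (15071 to 7692, -0.64), the mRNA-decay factor ZFP36L1 (13693 to 6708, -0.70) and the scaffold AKAP12 (15258 to 8109, -0.58). Of these losses F3 and ZFP36L1 passed 1.5-fold, at 1.56-fold and 1.63-fold lower, and AKAP12 fell just short at 1.4996.

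Some raised genes were neighbours on the chromosome. On chromosome 10 (GRCh38, 89213569 to 89421605) the 6 consecutive analysed genes LIPA, the long noncoding RNA ENSG00000232110, IFIT2, IFIT3, IFIT1 and IFIT5 were all raised (0.64 to 6.10). On chromosome 12 OAS1, OAS3 and OAS2 stood beside DTX1 and RASAL1 (112905856 to 113136239, 0.64 to 5.70). On chromosome 22 APOL3, APOL4, APOL2 and APOL1, apolipoproteins L of which APOL1 lyses trypanosomes, were raised from 1.79 to 3.07 (36140329 to 36267530). PARP9, its partner ubiquitin ligase DTX3L and PARP14 were neighbours on chromosome 3 (122527924 to 122730840, 2.11 to 2.60), at 319 and 1542, 843 and 2909, and 1282 and 5101 counts. On chromosome 17 the keratins KRT14, KRT16 and KRT17, which mark basal and stressed epithelium, rose together (41582279 to 41624842): KRT17 went from 25 to 228 counts (3.52, 2.92 to 4.11), KRT16 from 17 to 87 (2.68, 1.94 to 3.42) and KRT14 from 73 to 98 (0.75, 0.32 to 1.19). On chromosome 15 DUOX2, a hydrogen peroxide-making oxidase of epithelia, had 3 and 88 counts (5.20, 3.62 to 6.78, with the log2 fold change of DUOX2 at 3.46 with a floor of 10 counts) and stood among 4 raised DUOX and DUOXA genes whose counts are all partly shared between genes. The runs were found by a search of all analysed genes after the values were seen.

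To show the promoter sequences of these genes, the 300 bases around the transcription start (250 before and 50 after) were taken from the RefSeq table of GRCh38.p14, which matched 11182 of the 15126 genes, and 11144 of those had a fold change. IRF factors and ISGF3 bind pairs of GAAA spaced by 2 bases. Searched on both strands, 2 such copies stood in 3.65% of all promoters in the table and in 2.28% (95% Wilson interval 2.0 to 2.59) of the 10019 genes called neither way. They stood in 34.3% (25.7 to 44.1) of the 99 genes raised at least 4-fold and in 7.43% (5.51 to 9.97) of the 538 genes raised 1.5- to 4-fold, but in 2.87% (1.72 to 4.76) of the 488 lowered genes. The stricter IRF motif in the motif table of the study, NNGAAANTGAAANN, every match of which also holds the GAAA pair, stood in 0.787% of all promoters, 21.2% (14.3 to 30.3) of the genes raised at least 4-fold, 2.04% (1.15 to 3.62) of those raised 1.5- to 4-fold and 0.41% (0.112 to 1.48) of the lowered genes. Where several starts were listed the first was used.

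**Figure D4:**
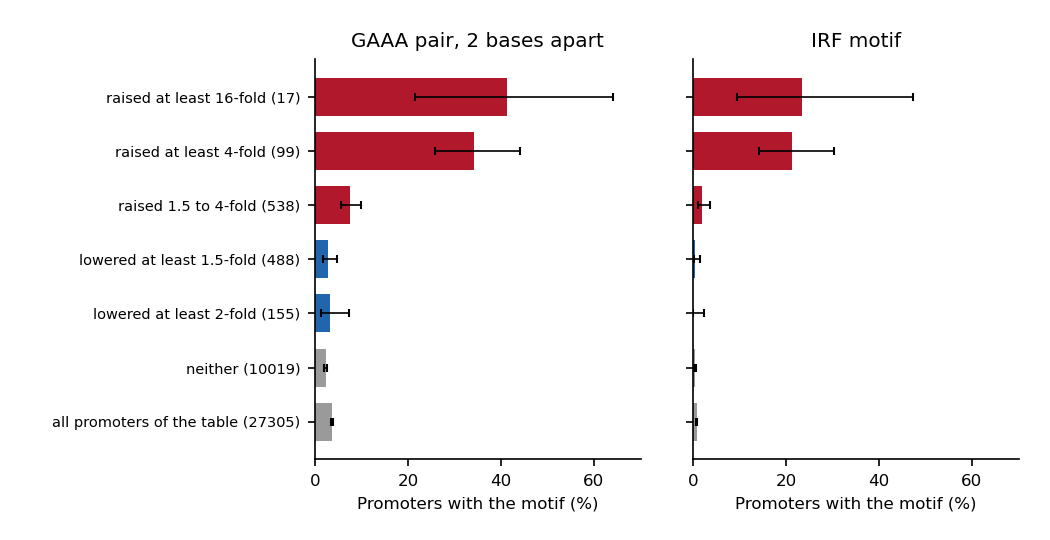
Share of promoters (percent, bars from 0) that hold 2 copies of GAAA spaced by 2 bases (left) or the IRF motif (right), by fold class in HAQ/- cells, with the number of promoters in brackets and 95% Wilson intervals. The classes raised at least 4-fold reached 34.3% and 21.2%, and the lowered classes stayed at 3.23% or below.

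The following 90-base stretches end before the start and are written 5' to 3' on the gene's strand, with each pair of GAAA (or its complement on the other strand) in capitals. They show what the counted letters look like in strongly raised genes, and were picked after the values were seen. OASL, IFIT2, MX2 and OAS2 have no entry in the table. SAMD9 holds 1 pair and the others 2 each, overlapping in ISG15, and those of IFIT1 and IFIT3 stand on the other strand.
ISG15 (chr1:1013347-1013436, plus strand): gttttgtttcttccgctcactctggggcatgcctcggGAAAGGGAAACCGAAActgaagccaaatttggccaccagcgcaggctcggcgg
IFIT1 (chr10:89392473-89392562, plus strand): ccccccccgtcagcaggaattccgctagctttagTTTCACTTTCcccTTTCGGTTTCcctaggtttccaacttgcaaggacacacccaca
IFIT3 (chr10:89327818-89327907, plus strand): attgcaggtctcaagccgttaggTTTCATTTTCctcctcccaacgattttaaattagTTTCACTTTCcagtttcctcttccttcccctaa
RTP4 (chr3:187368295-187368384, plus strand): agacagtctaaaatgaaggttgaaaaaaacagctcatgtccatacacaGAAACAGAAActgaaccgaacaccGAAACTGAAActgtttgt
SAMD9 (chr7:93118066-93118155, minus strand): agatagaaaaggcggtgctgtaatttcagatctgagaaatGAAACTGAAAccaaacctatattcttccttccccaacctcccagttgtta

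The next stretches belong to genes that stayed at 17 counts or fewer in treated HAQ/- cells, with the GAAA pairs and the NF-kB letters GGNNTTTCC in capitals. IFNL1 holds 2 overlapping GAAA pairs, IFNB1 and CXCL11 hold an NF-kB match and no pair at this spacing, and CXCL10 holds both kinds, so the letters found in ISG promoters are also present in genes with few counts.
IFNB1 (chr9:21077959-21078048, minus strand): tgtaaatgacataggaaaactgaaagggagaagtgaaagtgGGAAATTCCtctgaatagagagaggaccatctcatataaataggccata
IFNL1 (chr19:39296157-39296246, plus strand): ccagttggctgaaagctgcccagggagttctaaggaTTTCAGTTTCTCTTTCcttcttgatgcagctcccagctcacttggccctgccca
CXCL10 (chr4:76023647-76023736, minus strand): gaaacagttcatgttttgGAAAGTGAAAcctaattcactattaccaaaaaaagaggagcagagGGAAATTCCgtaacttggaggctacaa
CXCL11 (chr4:76036097-76036186, minus strand): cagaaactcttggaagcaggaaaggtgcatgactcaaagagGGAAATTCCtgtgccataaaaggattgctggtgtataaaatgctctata

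NF-kB targets went the other way. Of the 20 analysed 11 were lowered and 2 raised, with a median of -0.86. The neutrophil chemokine CXCL8 fell from 3597 to 751 counts (-1.93, -2.05 to -1.82) and CXCL2 from 248 to 76 (-1.38, -1.75 to -1.01). NFKBIZ, a nuclear cofactor of NF-kB, was raised from 649 to 831 counts (0.68, 0.54 to 0.83), and CXCL5, with 11 and 14 counts, was the other raised member (0.68, -0.44 to 1.79). The list also fell in the other lines. In WT/- 10 were lowered and 1 raised (median -0.72), and in WT/HAQ 16 and 2 (median -1.54). CXCL8 was at -1.36 in WT/- and -3.12 in WT/HAQ. In the control libraries all 20 stood at a lower normalized count in HAQ/- than in either other line, as did 33.9% of all analysed genes: CXCL8 stood at 3138 normalized counts against 46002 in WT/- and 20328 in WT/HAQ controls, and TNFAIP3, the A20 inhibitor of NF-kB, at 1207 against 30554 and 10044. TNFAIP3, chosen after its values were seen, fell from 1384 to 436 counts in HAQ/- cells (-1.34, -1.49 to -1.18). The NF-kB letters, searched after the values were seen, stood in 9.63% (7.32 to 12.6) of the 488 promoters of lowered genes, 8.32% (6.42 to 10.7) of the 637 of raised genes and 6.77% (6.32 to 7.26) of all 11144. They stood in 17.1% (11.5 to 24.5) of the 129 promoters of lowered genes averaging 200 counts or more, in 12% (8.12 to 17.3) of the 192 of raised genes at that level and in 7.06% (6.5 to 7.66) of all 7521 genes at that level. The stretches below are those of both chemokines described here, with the matches in capitals.
CXCL8 (chr4:73740437-73740526, plus strand): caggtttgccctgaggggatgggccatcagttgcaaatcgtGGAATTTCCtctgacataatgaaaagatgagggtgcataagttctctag
CXCL2 (chr4:74099212-74099301, minus strand): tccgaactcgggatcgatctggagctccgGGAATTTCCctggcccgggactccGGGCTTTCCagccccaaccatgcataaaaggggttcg

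Immediate-early genes, which are switched on within minutes of a growth or stress signal, were lowered in 10 of 19 cases and raised in 1, with a median of -0.76. All 19 stood lower in the HAQ/- control than in both other controls. The zinc-finger factors EGR2 and EGR3 fell from 545 to 110 (-1.98, -2.28 to -1.69) and from 3919 to 817 counts (-1.93, -2.04 to -1.83), and ARC, a synaptic immediate-early gene, from 52 to 9 (-2.20, -3.20 to -1.20). KLF4, an epithelial differentiation factor, was the raised member, from 769 to 2038 counts (1.73, 1.61 to 1.85), and KLF6 was not called with 6233 and 6346 counts (0.35). EGR1 and ATF3, chosen after their values were seen, fell from 6967 to 2013 (-1.46) and from 2871 to 763 counts (-1.58). In the YAP/TEAD list, targets of the Hippo pathway, 6 of 10 were lowered and 0 raised (median -0.76), and 6 of the 10 stood lower in the HAQ/- control than in both other controls. ANKRD1 had 46 and 14 counts (-1.39) and CCN1 (CYR61), a matrix protein, 4575 and 1644 (-1.15). Of the same list 7 were lowered in WT/- (median -0.95) and 8 in WT/HAQ (median -1.38), with 0 raised in either. Outputs of the ERK pathway were lowered in 2 of 18 cases in HAQ/- cells, SPRY2, a feedback inhibitor of receptor kinases, from 871 to 245 counts (-1.50, -1.71 to -1.30) and the cytokine LIF from 7063 to 3077 (-0.87), with a median of -0.28. How much of these falls goes with the handling of the treated cells, which were permeabilized and given fresh medium, was not tested.

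Among the 12 largest falls by rule, only SLITRK6, ARC, EGR2, EGR3 and CXCL8 had whole counts. SLITRK6, a neuronal adhesion protein, went from 64 to 10 counts (-2.35, -3.30 to -1.41). The other 7 were ENSG00000277701 (285 to 1 count), ENSG00000273590 (183 to 4), RP11-379K17.12 (79 to 0), CTC-487M23.8 (74 to 1), SULT1A4 (92 to 12), ENSG00000269243 (56 to 11) and PEDS1-UBE2V1 (68 to 15), which share reads with other genes and are uncertain. SULT1A4 has a near-identical copy, PEDS1-UBE2V1 is a readthrough of its parent genes, and ENSG00000273590 is typed as an artifact in GENCODE release 44. For RP11-379K17.12 the fall was at least 21.0-fold, with the floor of 3 counts per library. Among genes named elsewhere, XAF1, TAP1, ERAP1, IRF9, IRF1, IRF3, TBK1, LIF, DDIT3, CCNE2, HSPA1B and CD68 also had counts that were not whole. Of all analysed genes 25.3% had counts that were not whole, and of the raised and lowered genes 27.1% and 29.5%.

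Zinc-finger genes on chromosome 19, a cluster of KRAB repressors of transposable elements, were lowered in 30 of 232 cases and raised in 5, with a median of -0.19, against 54 lowered and 55 raised of 871 other genes on that chromosome (median -0.03). The same genes had 31 lowered and 18 raised members in WT/- (median -0.14) and 31 lowered and 25 raised in WT/HAQ (median -0.11). These genes were chosen after the values were seen. ZFP30 fell from 2442 to 853 counts (-1.19, -1.30 to -1.08), and ZNF569 from 1357 to 541 (-1.0, -1.14 to -0.86). ZNF540, ZNF571, ZFP30 and the ZNF781 pseudogene formed a run of 4 lowered neighbours (37551406 to 37692337). The 222 zinc-finger genes on other chromosomes had 11 lowered and 3 raised members (median -0.12).

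Other lists held few called genes, apart from stress-response genes and the study's lists given last. Heat shock genes had 0 called of 10 (median 0.03), with HSPA1B at 1298 and 1351 counts (0.39) and BAG3 at 1471 and 874 (-0.42). G2/M genes had 0 of 12 called (median -0.02) and S phase genes 1 of 14, CCNE2, a cyclin of the G1 to S transition, with 121 and 152 counts (0.66, 0.31 to 1.0). Oxidative stress and metallothionein genes had 0 of 9 called (median -0.04), and OSGIN1 had 174 and 110 counts (-0.33). Sterol genes had 0 raised and 1 lowered of 16 (median -0.13). Hypoxia and glycolysis genes had 1 raised and 1 lowered of 13: hexokinase HK2 went from 762 to 1719 counts (1.5, 1.38 to 1.62) and the vasodilator peptide ADM from 566 to 290 (-0.64). Stress-response genes had 3 lowered and 0 raised of 16, among them DDIT3 (CHOP) with 565 and 245 counts (-0.88) and PPP1R15A (GADD34), which restores translation after eIF2 alpha phosphorylation, with 4655 and 2290 (-0.70, -0.77 to -0.62). Of the 248 analysed genes on the study's list of pattern recognition pathways, 43 were raised and 16 lowered (median 0.01). SYK, a kinase downstream of lectin receptors, fell from 22 to 3 counts (-2.55, -4.20 to -0.90), and with a floor of 10 counts the log2 fold change of SYK was -0.81. The study's signature of 38 ISGs had 36 raised and 0 lowered members, and PSME2, a proteasome activator subunit at 477 and 513 counts (0.43), was 1 of the 2 not called.

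Compared with the other lines, the HAQ/- response was the smaller. WT/- cells had 1796 raised (11.9%) and 1327 lowered genes (8.77%), and WT/HAQ cells 1943 (12.8%) and 1861 (12.3%). The lines do not share control libraries. Of the 1021 genes raised in HAQ/- cells 569 were also raised in WT/- (55.7% of the HAQ/- and 31.7% of the WT/- genes) and 601 in WT/HAQ (58.9% and 30.9%). Another 9.7% were lowered in WT/- and 9.4% in WT/HAQ. Of the 872 genes lowered in HAQ/- cells 282 were also lowered in WT/- (32.3%) and 372 in WT/HAQ (42.7%), while 16.1% and 14.7% were raised there. Among genes averaging 200 counts or more, 245 were raised in HAQ/-, and 93.9% of those were raised in WT/- and 94.7% in WT/HAQ, while 65.1% and 79.5% of the 166 lowered genes were lowered there. Among these 245 genes the median log2 fold change was 1.14 in HAQ/-, 1.94 in WT/- and 2.20 in WT/HAQ. As the 245 were chosen on their HAQ/- value, these medians describe and do not test a difference. Over the 9186 genes at that level the log2 fold changes of HAQ/- correlated with those of WT/- at Pearson's r = 0.776 and with those of WT/HAQ at 0.807, and over all 15047 and 15065 genes with a fold change in both lines at 0.493 and 0.548 (Spearman's rho 0.554 and 0.614, and 0.365 and 0.426 over all), across genes that are not independent replicates.

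The differences between lines varied over the gene lists. Median log2 fold changes of the antiviral effectors were 3.0 in HAQ/-, 3.18 in WT/- and 4.13 in WT/HAQ. Gene by gene, their median difference from HAQ/- was 0.45 in WT/-, with 31 of 41 larger there, 23 intervals wholly above 0 and 7 wholly below. In WT/HAQ it was 1.03, with 39 larger, 34 intervals wholly above 0 and 1 wholly below. The medians of the 5 T-cell-attracting chemokines with a fold change in every line were 2.06, 8.27 and 7.95. With 5 genes each median is a single gene, and that of HAQ/- is CXCL11, whose 2 control counts were set to 3. In the same order of lines CX3CL1 was at 3.76, 4.03 and 3.76, and CXCL16 at -0.01, 0.16 and 0.92. For CXCL11 and IFNB1, with 2 to 6 control counts in each line, the size of the difference depends on the floor of 3 counts, and no interval is given for it. For CCL5 the fold change was larger in WT/- by 3.89 on the log2 scale (2.85 to 4.94), for ISG15 by 0.44 (0.17 to 0.72) and for IFIT3 by 0.15 (-0.06 to 0.36), an interval that includes 0. JAK2, a kinase of cytokine receptors, had 163 and 256 counts (0.98) in HAQ/- and rose by 3.27 in WT/- and 3.67 in WT/HAQ. The death receptor FAS had 216 and 211 counts (0.29) against 2.88 and 2.46. JAK2 and FAS were chosen after their values were seen. In the control libraries FAS had 188, 176 and 209 normalized counts in HAQ/-, WT/- and WT/HAQ.

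Some genes had the larger fold in HAQ/- cells. Of 136 genes averaging 200 counts or more and raised at least 2-fold in HAQ/-, the difference from WT/- had a counting interval wholly above 0 in 95 and wholly below 0 in 12. The 136 were chosen on their HAQ/- value, so these numbers describe and do not test a difference. The 12 were HELZ2, IRF1, IRF9, KRT16, MX1, OAS1, OAS2, PML, SOCS3, TNFSF10, TRIM21 and XAF1. All 12 had the higher level in the WT/- control library, and 11 also ended higher in the treated WT/- library. OAS2 stood at 75 normalized counts in HAQ/- and 272 in WT/- controls and ended at 2997 and 4890, and IRF9 went from 190 and 545 to 953 and 1414. Against WT/HAQ, the interval of the difference lay wholly above 0 in 113 of the 136 and wholly below 0 in 2, IRF1 and SOCS3. IRF1, an interferon- and NF-kB-induced factor, went from 1498 to 3921 counts in HAQ/- (1.72, against 0.72 and 1.51).

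**Figure D5:**
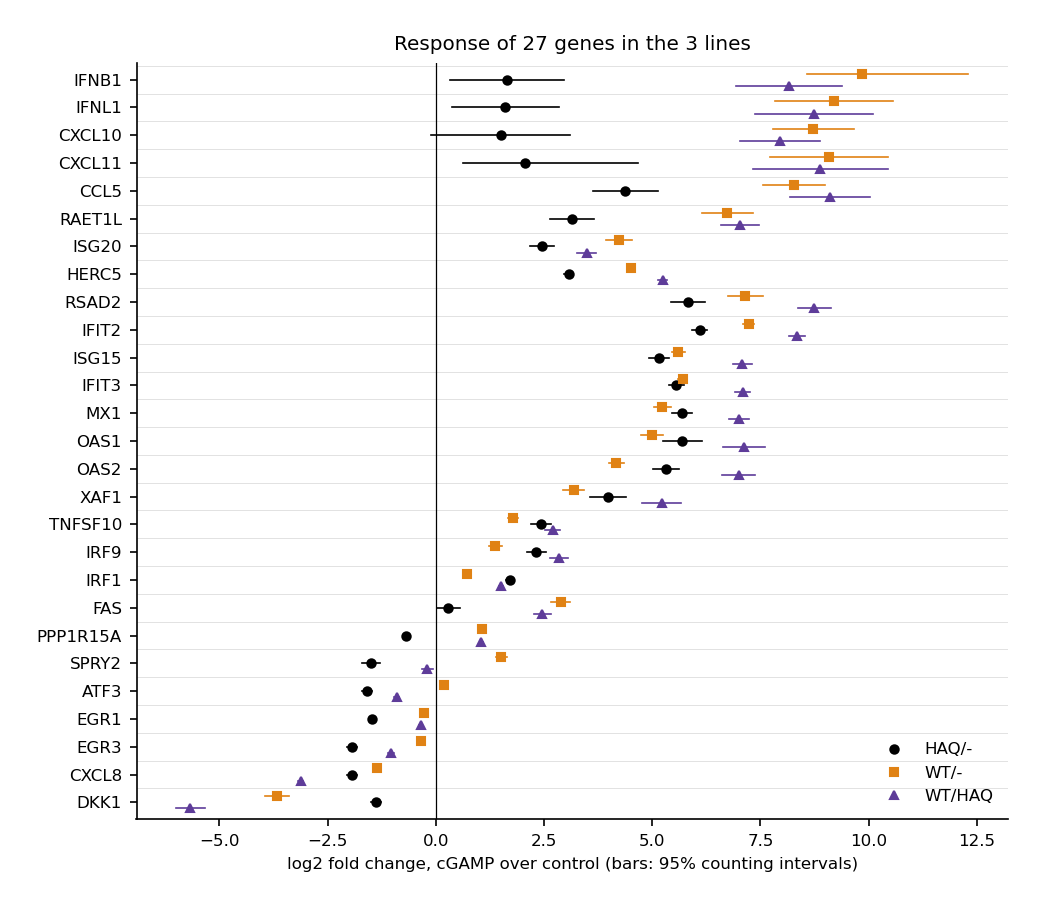
Log2 fold change of cGAMP over control for 27 genes in HAQ/- (black circles), WT/- (orange squares) and WT/HAQ (purple triangles), with 95% counting intervals as bars. IFNB1, IFNL1, CXCL10 and CXCL11 stand to the left in HAQ/- and far to the right in the other lines, at positions that depend on a few control counts and, where those were under 3, on the floor of 3, whereas MX1, OAS1 and OAS2 in HAQ/- lie between the other lines.

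Genes above both other lines by rule were mostly genes that fell there and fell less in HAQ/- cells. DKK1, a WNT antagonist, went from 2285 to 698 counts (-1.38, -1.51 to -1.26), against -3.67 in WT/- and -5.67 in WT/HAQ. INHBA, a subunit of activin A, had 2130 and 1840 counts (0.12, 0.03 to 0.21), against -2.07 and -2.14. It was not called in HAQ/- cells and was lowered in both other lines. The vasoconstrictor EDN2 had 36 and 12 counts (-1.26), CSF2 (GM-CSF) 9 and 0, and FGF5 3 and 10 (2.06, 0.31 to 3.82). Genes below both lines, beside IFNB1, IFNL1, CXCL10 and CXCL11, included ALDH1A1, a retinaldehyde dehydrogenase, at 19 and 1 counts, and the ceramidase ACER2 at 12 and 9 (-0.09), against 5.43 and 4.32, and 5.32 and 5.16. The immediate-early list as a whole had a median of -0.76 in HAQ/-, -0.21 in WT/- and -0.78 in WT/HAQ, and its members went both ways: EGR1 was at -1.46, -0.28 and -0.35 and ATF3 at -1.58, 0.18 and -0.90, while FOSL1, IER3 and NR4A1 had the larger falls in both other lines. MYC was at -0.56, -0.59 and -1.56, with the larger fall in WT/HAQ only. These genes were chosen after their values were seen, and so was SPRY2 of the ERK list here, at -1.50, 1.51 and -0.20. In controls EGR1 had 6078 normalized counts in HAQ/-, 19477 in WT/- and 10901 in WT/HAQ. None of these differences between lines was tested beyond counting error.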

How the data were processed

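RNA was sequenced from SKOV3 cells of 3 STING1 genotypes with and without cGAMP, in 6 libraries with 1 per genotype and treatment. Each deposited column holds the estimated count of every Ensembl gene, which the authors made from the reads and left unnormalized, and which need not be whole. STAR, RSEM and the builds GRCh38 and hg38 are named in the submitters' processing notes, without versions. Rounded to whole numbers, they summed to 17022809 in the HAQ/- control and 13686498 in the HAQ/- cGAMP library. All 6 columns matched their labels, with 0 left over. Library sizes were scaled by TMM (edgeR 4.0.16, R 4.3.3) on the 15126 genes averaging 10 counts or more. Normalized counts are on a common library size, the geometric mean over all libraries after scaling. Each fold divides the treated by the untreated library within a line, counts under 3 were set to 3, and genes at 3 or fewer in both got no fold. Intervals are at 95% and cover counting error only. Intervals of a fold are Wilson intervals of the treated library's share, and those of a difference between lines use a normal approximation.

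With 1 library a side no p-value was computed. Members and lists were chosen with earlier results of these data known. Named genes were STING1, IFNB1, IFNL1, CXCL10, CCL5, USP18 and TIPARP, the 12 largest rises and 12 largest falls with at least 50 counts in the higher library, the 5 largest gains and losses in normalized counts, up to 4 members of each list (the largest and smallest folds), and the 8 genes most above and 8 most below both other lines at a mean count of at least 50. Some genes that the rule names are not reported here. Others were chosen after their values were seen. Positions are from GENCODE release 44, and promoters from RefSeq (GRCh38.p14). Alternatives used DESeq2 1.42.0 size factors, total counts, thinned libraries, other filters, floors and thresholds. The steps were checked on simulated counts. Calculations ran in Python 3.11.15 with pandas 2.3.3, scipy 1.17.1 and numpy 2.4.6, and matplotlib 3.10.9 drew the plots.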

Additional observations from a re-analysis of the deposited data

Results flagged for a closer look

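A few named or listed genes moved at least 1.5-fold one way in HAQ/- cells and at least 1.5-fold the other way in both other lines. With 1 library for each line and treatment these differences were not tested. PPP1R15A, which encodes the GADD34 subunit of the eIF2 alpha phosphatase, had a log2 fold change of -0.70 in HAQ/-, 1.08 in WT/- and 1.05 in WT/HAQ. Its control level was 4061 normalized counts in HAQ/-, 17702 in WT/- and 9056 in WT/HAQ. ALDH1A1, a retinaldehyde dehydrogenase, was at -2.34 in HAQ/- (19 counts without and 1 with cGAMP, the lower count set to 3), 5.43 in WT/- and 4.32 in WT/HAQ. CEACAM6, an epithelial adhesion protein, was at 0.95 in HAQ/- (39 and 60 counts), -1.58 in WT/- and -1.18 in WT/HAQ. SMIM11, whose reads are shared with another gene, was at 2.24, -4.16 and -1.45. The same limit holds for ENSG00000277701, at -6.24, 0.81 and 3.98, and for RP11-379K17.12, at -4.39, 1.0 and 2.62. Over all analysed genes 25 were raised in HAQ/- and lowered in both other lines and 59 were lowered in HAQ/- and raised in both. At a mean count of at least 200 these numbers were 0 and 2.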

How the results depend on the processing

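The number of genes raised by cGAMP in HAQ/- and of genes lowered by cGAMP in HAQ/- was 1041 and 844 with DESeq2 size factors, 997 and 925 with total counts, 939 and 811 with libraries thinned to the smallest total, 914 and 711 with a floor of 10 counts, and 963 and 805 with a prior count of 2, all within 1.5 times of 1021 and 872. A mean count of at least 1 gave 1922 and 1621, at least 50 gave 431 and 331, a fold of at least 2 gave 470 and 293, and a fold of at least 1.2 gave 2331 and 2605, as fewer or more genes could then be called. Chosen after seeing the data, genes with whole counts in both HAQ/- libraries gave 744 and 615, and intervals wholly past 1.5-fold 321 and 148. The share of promoters with 2 copies of GAAA was 11.6% in raised and 2.87% in lowered genes. With 1 to 3 bases between the copies it was 18.8% and 6.97%, in genes past 2-fold 18.9% and 3.23%, and with any start listed for a gene, chosen after seeing the data, 14.1% and 4.71%. Across these alternatives 975 recomputed fold changes of named genes moved by less than their counting error and 5 by more, and for list medians these numbers were 193 and 3. With a floor of 10 counts the log2 fold change of RTP4 was 4.12, the log2 fold change of DUOX2 3.46 and the log2 fold change of SYK -0.81, and the raised T-cell-attracting chemokines went from 4 to 2. No paired analysis was possible because the HAQ/- comparison has 1 library a side, and a fit with the line as a block would give the mean response of the 3 lines, which was not run. The spread between cultures was not measured, and for genes at a few counts, such as IFNB1, depth limits what can be read.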
